A study of Mus musculus with 8 samples.

Results

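The genes described here are 10 pluripotency and RNA-binding genes that germ cells of the fetal gonad are known to transcribe: Pou5f1, Nanog, Sox2, Utf1, Dppa3, Lin28a, Dazl, Ddx4, Dnd1 and Nanos3. Every probe set that the array annotation maps to one of these symbols was taken. This gave 13 probe sets for 9 of the 10 genes, among 18193 genes with values. Nanos3 was not analysed here. Of the 9 genes, 6 had 1 probe set, 2 had 2 and 1 had 3, and where a gene had several, the brightest on average stands for it. The rule uses no measured value, though earlier results of these data were known when the genes were chosen.

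Transcripts were hybridised to 8 Affymetrix Mouse Genome 430v2.0 arrays, 2 for each of 4 groups, all at embryonic day 13 and all labelled with the strain C57BL6/J-Tg92. Sertoli cells were EGFP+ cells sorted from XY gonads (about 22000 cells a sample), and pre-granulosa cells were EGFP+ cells sorted from XX gonads (about 30000 cells a sample). Testis and ovary samples were whole XY and XX gonads, with 4 gonads pooled in each. The labels name no promoter for the EGFP transgene and do not say whether replicates came from different animals, so the p-values measure the spread between RNA samples. All values are log2 levels after each array was shifted to a common median, and a called difference has a limma p-value, adjusted over all probe sets by the Benjamini-Hochberg method, at or under 0.01.

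Germ cells reach the gonad as primordial germ cells and at this stage still use part of the transcription factor network of pluripotent cells. Pou5f1 (OCT4), Nanog and Sox2 are the core of that network, and OCT4 and SOX2 bind together to composite DNA sites. The other genes mostly act on RNA. Lin28a blocks maturation of let-7 microRNAs, Dazl binds messenger RNAs and is needed for germ cells to enter their sexual programme, Ddx4 (the mouse Vasa gene) is an RNA helicase of germ granules, and Dnd1 and Nanos3 act with the CCR4-NOT deadenylase complex and keep primordial germ cells alive. Supporting cells, the Sertoli and pre-granulosa lineages, enclose the germ cells.

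The supporting-cell labels were checked against defining markers. Amh was 8.14 and 8.30 in Sertoli arrays and 5.57 and 5.25 in pre-granulosa arrays, and Foxl2 was 5.40 and 5.65 in the Sertoli arrays, against 9.16 and 9.84 in the pre-granulosa arrays. Of 10 supporting-cell markers, 3 were called higher and 2 lower in Sertoli than in pre-granulosa arrays, where 2.67% of all genes were called in either direction. Sox9, a Sertoli factor, was not called: it read 11.74 and 12.17 in Sertoli arrays, 9.63 and 10.75 in pre-granulosa arrays, 11.21 and 11.19 in testis, and 7.88 and 8.19 in ovary, so pre-granulosa arrays stood above the ovary arrays (adjusted p = 0.0139, not called). Eif2s3y, on the Y chromosome, was at 10.39 or above in the 4 XY arrays and at 4.26 or below in the 4 XX arrays. The highest value of 9 probe sets for Y-linked genes in XX arrays, 4.95, was used as a background level. That reading came from a Kdm5d probe set in pre-granulosa 1, and the same probe set read only 4.54 to 4.83 in XY arrays. The median of the XX readings was 3.64. A gene with both arrays of a group at or below the background level has only an upper limit there, and its fold is given as a bound against that level. Replicates varied by a root mean square standard deviation of 0.428 for Sertoli, 0.531 for pre-granulosa, 0.198 for testis and 0.299 for ovary arrays.

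The 250 bases upstream of the annotated start are shown for 5 of these genes, all far lower in sorted cells than in whole gonads. They come from the RefSeq table for GRCm38.p6 and lie at chr6:122707239-122707488 on the plus strand for Nanog, chr3:34649745-34649994 on the plus strand for Sox2, chr17:35505782-35506031 on the plus strand for Pou5f1, chr13:112652311-112652560 on the minus strand for Ddx4 and chr17:50293621-50293870 on the minus strand for Dazl, each printed 5′ to 3′ along its gene. Capitals mark matches on either strand to 6 letter patterns: an octamer-type word (ATGCAAA), a Sox-octamer composite (a Sox-type word, CATTGT, placed 1 base before the octamer-type word), a GC box (GGGCGG), an E2F-type word (GGCGGGAA), an E-box (CACGTG) and a CCAAT box (CCAAT).
Nanog: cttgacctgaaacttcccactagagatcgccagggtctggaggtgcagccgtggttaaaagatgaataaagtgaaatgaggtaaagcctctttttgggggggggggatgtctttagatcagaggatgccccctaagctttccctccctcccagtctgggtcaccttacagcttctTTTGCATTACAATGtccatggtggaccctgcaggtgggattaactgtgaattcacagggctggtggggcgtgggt
Sox2: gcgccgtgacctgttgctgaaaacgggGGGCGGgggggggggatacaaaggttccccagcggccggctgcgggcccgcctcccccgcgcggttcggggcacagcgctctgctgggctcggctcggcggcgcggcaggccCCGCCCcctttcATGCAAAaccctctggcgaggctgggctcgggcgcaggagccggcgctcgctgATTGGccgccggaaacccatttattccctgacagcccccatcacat
Pou5f1: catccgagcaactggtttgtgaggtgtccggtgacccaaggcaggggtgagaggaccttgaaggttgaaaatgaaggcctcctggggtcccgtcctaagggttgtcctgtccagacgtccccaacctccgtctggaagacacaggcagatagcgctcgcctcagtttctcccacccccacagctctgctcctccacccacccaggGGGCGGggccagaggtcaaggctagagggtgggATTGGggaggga
Ddx4: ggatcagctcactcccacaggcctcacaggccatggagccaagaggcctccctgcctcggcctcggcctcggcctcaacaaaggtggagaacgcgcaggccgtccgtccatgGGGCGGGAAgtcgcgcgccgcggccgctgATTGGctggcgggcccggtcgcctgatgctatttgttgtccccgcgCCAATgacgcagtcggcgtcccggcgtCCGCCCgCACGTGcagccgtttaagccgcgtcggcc
Dazl: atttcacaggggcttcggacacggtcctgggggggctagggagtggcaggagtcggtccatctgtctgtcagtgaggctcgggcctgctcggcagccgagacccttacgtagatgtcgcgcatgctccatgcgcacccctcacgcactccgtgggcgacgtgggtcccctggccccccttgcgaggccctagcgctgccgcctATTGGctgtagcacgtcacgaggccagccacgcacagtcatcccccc
The capitals in Nanog are 1 composite match on the opposite strand, which contains the octamer-type word. Among 32851 promoter entries in the table only 2 held the composite, both of them starts of Nanog, which is 0.00609% of entries. The octamer-type word stood in 4.12% of entries, Sox2 among them. The Ddx4 stretch held an E2F-type word (1.86% of entries), which overlaps a GC box, an E-box (6.02%) and CCAAT boxes (33.8%). Dazl held a CCAAT box, and Pou5f1 a CCAAT box and a GC box (32.7%). The stretch held 31 CpG dinucleotides for Ddx4, 27 for Sox2, 20 for Dazl, 8 for Pou5f1 and 3 for Nanog, where the median of all entries was 6. At least as many as in Ddx4 were found in 5.19% of entries, and at least as many as in Dazl in 17.9%. A match to letters describes this window and says nothing about binding.

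The sorted supporting cells held far less of these transcripts than the whole gonads. In Sertoli cells against testis, 8 of the 9 measured genes were called lower, where 4.4% of all 18193 genes were called lower, and 0 were called higher, where 2.47% of all genes were. In pre-granulosa cells against ovary, 9 of 9 were called lower, where 4.11% of all genes were, and 0 were called higher, where 1.29% were. For all 9 genes the sorted arrays lay below the gonad arrays of the same sex without overlap, as they did for 32.5% of all genes in Sertoli cells against testis and for 32.8% in pre-granulosa cells against ovary. The median difference of the 9 genes was -4.53 for Sertoli minus testis, beside 0.10 for all genes, and -5.15 for pre-granulosa minus ovary, beside -0.01 for all genes. In bulk samples, fewer cells of a type and less RNA per cell cannot be told apart. The Sertoli count was 0 without testis 1 or without testis 2, where 0 genes of the whole table were called. The pre-granulosa count was 0 without ovary 1 and 3 without ovary 2.

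**Figure D1:**
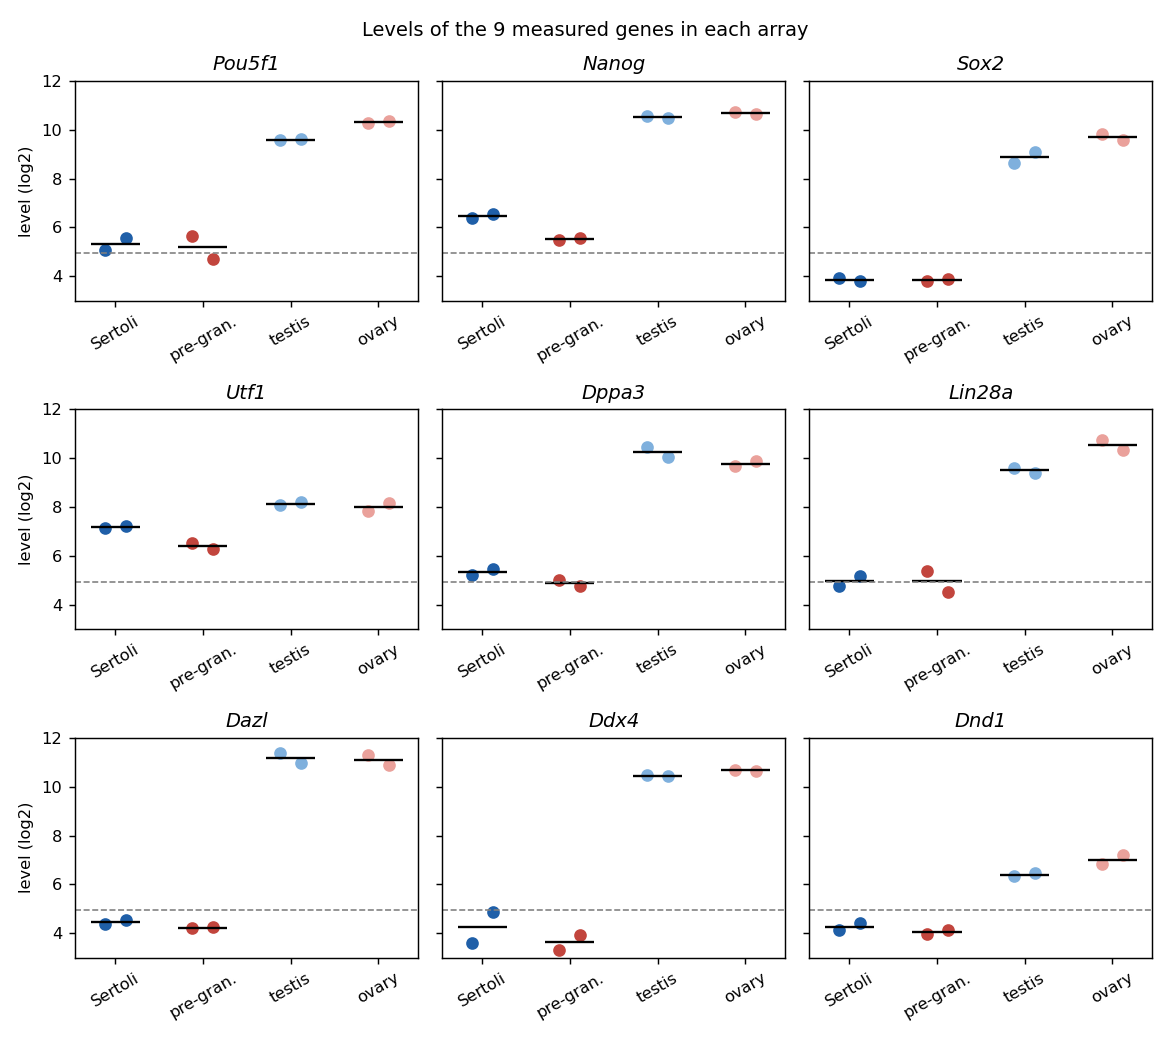
Level (log2, vertical axis) of each of the 9 measured genes in each array, with Sertoli, pre-granulosa, testis and ovary from left to right; points are arrays, solid lines group means of 2 arrays, and the dashed line the background level of 4.95. Testis and ovary points lie above all sorted-cell points for each gene, by the narrowest margin for Utf1.

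Pou5f1, the transcription factor OCT4 of the pluripotency core (chromosome 17), read 5.10 and 5.56 in Sertoli cells and 9.57 and 9.62 in testis. It read 5.65 and 4.72 in pre-granulosa cells and 10.26 and 10.34 in ovary. The sorted arrays did not reach any gonad array, and the Sertoli and pre-granulosa arrays overlapped. Sertoli minus testis was -4.26 ± 0.32 log2 units (standard error of the model), or 19.2-fold lower (adjusted p = 0.00159). Pre-granulosa minus ovary was -5.12 ± 0.32, or 34.8-fold lower (adjusted p = 0.00131). Pre-granulosa 2, at 4.72, was below the background level, so the second fold rests in part on a reading with no measured level.

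Nanog (chromosome 6), the homeodomain factor that stabilises the pluripotent state, read 6.39 and 6.55 in Sertoli cells and 10.58 and 10.49 in testis. Its levels were 5.49 and 5.56 in pre-granulosa cells and 10.72 and 10.64 in ovary. Replicates lay close together in all 4 groups, and none of the 4 sorted arrays was at background. Nanog was 16.7-fold lower in Sertoli cells than in testis (difference -4.06 ± 0.14, adjusted p = 5.19e-04) and 35.6-fold lower in pre-granulosa cells than in ovary (difference -5.15 ± 0.14, adjusted p = 3.27e-04).

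Sox2 (chromosome 3), the DNA-binding partner of OCT4, was at background in all sorted arrays, with 3.92 and 3.81 in Sertoli and 3.81 and 3.87 in pre-granulosa arrays. Testis arrays read 8.65 and 9.09, and ovary arrays 9.83 and 9.60. In Sertoli cells Sox2 was at least 15.1-fold lower than in testis (adjusted p = 5.19e-04) and in pre-granulosa cells at least 27.2-fold lower than in ovary (adjusted p = 4.21e-04).

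Utf1 (chromosome 7), a chromatin-associated factor of embryonic stem cells, had the smallest differences of the 9 genes. It read 7.15 and 7.24 in Sertoli cells and 8.08 and 8.21 in testis, and 6.54 and 6.28 in pre-granulosa cells and 7.82 and 8.15 in ovary. Its sorted arrays stood well above the background level and below the gonad arrays. The difference of -0.95 ± 0.18 between Sertoli cells and testis was not called (adjusted p = 0.0161, 95% interval -1.39 to -0.51). It was called with values as deposited (-1.35, adjusted p = 0.00548) and with a weight per group (adjusted p = 0.00974). The fall of 1.58 ± 0.18 in pre-granulosa cells against ovary was called, at 2.99-fold (adjusted p = 0.0047). This call was lost with a weight per group (adjusted p = 0.0108) and with the replicate number as a block (adjusted p = 0.0121). It was also lost with no moderation (adjusted p = 0.0176) and with only the arrays compared. Another Utf1 probe set gave -0.60 and -0.72 in these comparisons, neither of them called (adjusted p = 0.0587 and 0.0397), and the remaining Utf1 probe set was at background in all 8 arrays.

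Dppa3 (Stella, chromosome 6) encodes a protein that shields methylated DNA in the egg and marks germ cells from their specification. It read 5.21 and 5.46 in Sertoli cells and 10.47 and 10.04 in testis, and 5.03 and 4.76 in pre-granulosa cells and 9.67 and 9.90 in ovary. Sorted and gonad arrays were far apart in both sexes. Dppa3 was 30.4-fold lower in Sertoli cells than in testis (-4.92 ± 0.21, adjusted p = 5.88e-04) and 29.6-fold lower in pre-granulosa cells than in ovary (-4.89 ± 0.21, adjusted p = 6.39e-04). Pre-granulosa 2, at 4.76, was below the background level, so the second fold rests in part on a reading with no measured level.

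Among the genes that act on RNA, Lin28a (chromosome 4) read 4.77 and 5.19 in Sertoli cells and 9.59 and 9.42 in testis. It read 5.39 and 4.53 in pre-granulosa cells and 10.76 and 10.33 in ovary. Sertoli and pre-granulosa arrays overlapped near the background level, and the ovary arrays were the highest. Lin28a was 23.1-fold lower in Sertoli cells than in testis (-4.53 ± 0.33, adjusted p = 0.00151) and 48.1-fold lower in pre-granulosa cells than in ovary (-5.59 ± 0.33, adjusted p = 0.00115). Sertoli 1, at 4.77, and pre-granulosa 2, at 4.53, were below the background level, so both folds rest in part on readings with no measured level. The other Lin28a probe set was at background in all sorted arrays and was called in both comparisons, as at least 8.73-fold lower in Sertoli cells than in testis and in pre-granulosa cells at least 15.5-fold lower than in ovary.

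Dazl (chromosome 17) was at background in all sorted arrays, with 4.36 and 4.55 in Sertoli and 4.22 and 4.24 in pre-granulosa arrays. It read 11.40 and 10.98 in testis and 11.28 and 10.90 in ovary, so that the gonads of either sex overlapped. In Sertoli cells Dazl was at least 75.5-fold lower than in testis (adjusted p = 5.19e-04) and in pre-granulosa cells at least 70.5-fold lower than in ovary (adjusted p = 3.27e-04). Its other probe set, also at background in sorted cells, was called in both comparisons, with bounds of at least 12.7-fold and at least 10.6-fold.

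Ddx4 (chromosome 13) read 3.61 and 4.87 in Sertoli arrays, 3.30 and 3.94 in pre-granulosa arrays, 10.47 and 10.44 in testis, and 10.70 and 10.64 in ovary. The sorted arrays were at background, though Sertoli 2 was only just so. In Sertoli cells Ddx4 was at least 45.3-fold lower than in testis (adjusted p = 0.0013) and in pre-granulosa cells at least 52.5-fold lower than in ovary (adjusted p = 0.00118).

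Dnd1 (chromosome 18), which binds uridine-rich sites in messenger RNAs, read 4.14 and 4.40 in Sertoli cells and 6.34 and 6.45 in testis. It read 3.99 and 4.12 in pre-granulosa cells and 6.84 and 7.20 in ovary. All sorted arrays were at background. In Sertoli cells Dnd1 was at least 2.72-fold lower than in testis (adjusted p = 0.00228) and in pre-granulosa cells at least 4.19-fold lower than in ovary (adjusted p = 0.00131).

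**Figure D2:**
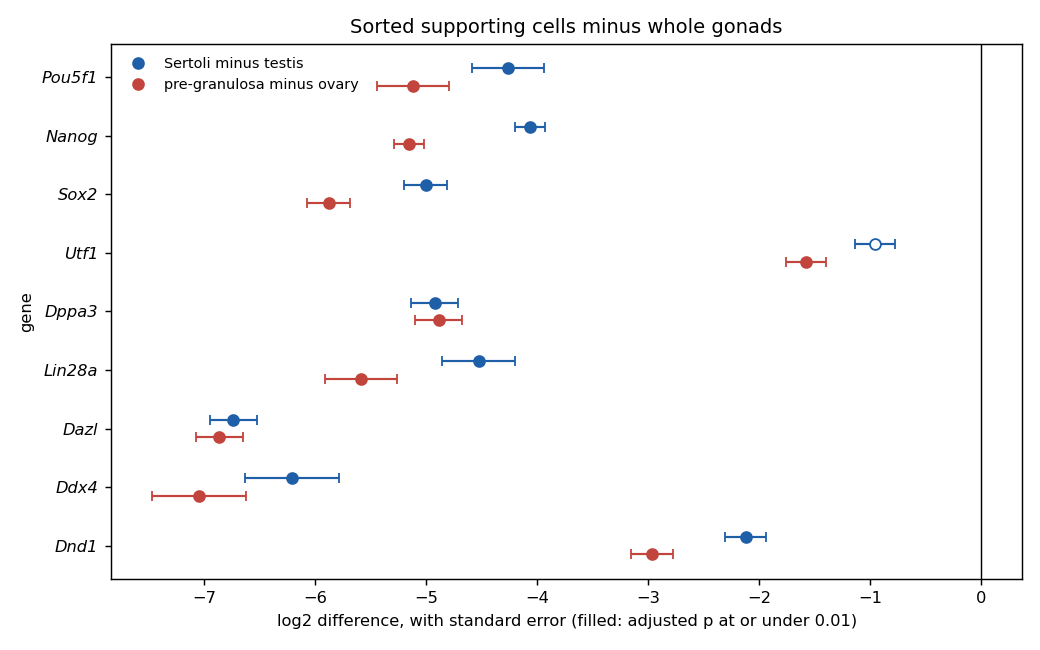
Log2 difference (horizontal axis) between sorted cells and the whole gonad of the same sex for each of the 9 genes, Sertoli minus testis above pre-granulosa minus ovary; points are fitted differences, bars standard errors, and filled points are called. Every point lies below 0 and only Utf1 in Sertoli minus testis (-0.95) is open; for genes at background in sorted cells the plotted value depends on readings near that level.

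Nanog and Utf1 read above the background level in all sorted arrays. Pou5f1 and Dppa3 were below it in pre-granulosa 2, and Lin28a in Sertoli 1 and pre-granulosa 2. Foxl2, a pre-granulosa marker, read 5.40 and 5.65 in Sertoli arrays, also above that level. A reading slightly above the level therefore does not by itself show a kept transcript. Dazl, Ddx4, Dnd1 and Sox2 were at background in both Sertoli and both pre-granulosa arrays, and 0 of the 9 genes were at background in testis or ovary. Sertoli 2 held the highest sorted-cell value of 6 of the 9 genes, but for Dazl, Ddx4 and Dnd1 among them that value was itself at background. On the other lists it was the highest sorted array for 7 of 19 pluripotency genes, 8 of 18 specification and surface genes and 6 of 18 RNA-binding genes. Single genes of these lists went both ways, but by unequal amounts. Tfap2c was 7.93 in Sertoli 2 and 4.53 in Sertoli 1, Dppa2 8.62 and 4.57, and Cdh1 8.01 and 4.30. Alpl was 5.95 in Sertoli 2 and 6.90 in Sertoli 1, Elavl2 4.89 and 5.66, and Rhox9 6.96 and 7.54. In Sertoli 2, 1 pluripotency gene and 1 specification or surface gene stood over 2 units above the median of the sorted arrays. In the other sorted arrays 0 genes of these lists did. Sertoli 2 was also the highest sorted array for 6 of 6 macrophage, 4 of 4 Leydig cell and 5 of 6 endothelial markers. It was so for 2 of 5 erythroid, 2 of 5 interstitial and 4 of 10 supporting-cell markers. Pre-granulosa 1 was above pre-granulosa 2 for Pou5f1, Lin28a and Dppa2 (7.35 and 4.09). The other Dppa2 probe set was at background in all sorted arrays, at 3.60 to 3.73. Another Tfap2c probe set read 7.82 in Sertoli 2 and 4.82 in Sertoli 1, while the remaining Tfap2c probe set was at background in all sorted arrays. Pre-granulosa 1 had the largest difference between 3′ and 5′ control probe sets of Gapdh, 3.68, against 0.72 to 2.69 in the other 7 arrays. The part of these array differences in the results was not tested.

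Markers of other cell types moved with some of these comparisons. The summed level of 6 macrophage markers (log2 of the sum) was 10.02 and 11.98 in Sertoli arrays, 7.65 and 7.48 in pre-granulosa arrays, 9.38 and 9.43 in testis, and 9.73 and 9.88 in ovary. That of 5 interstitial markers was 10.20 and 10.46 in Sertoli arrays, 8.52 and 10.51 in pre-granulosa arrays, 13.80 and 13.81 in testis, and 12.81 and 13.04 in ovary. In Sertoli cells against testis, 0 of 6 macrophage, 2 of 5 interstitial, 1 of 6 endothelial, 1 of 4 Leydig cell and 3 of 5 erythroid markers were called lower. In pre-granulosa cells against ovary these counts were 1 of 6, 3 of 5, 2 of 6, 0 of 4 and 2 of 5. Over all genes, 4.4% were called lower in the Sertoli comparison and 4.11% in the pre-granulosa comparison. Among Leydig cell markers, Cyp17a1 read 8.89 and 10.25 in Sertoli arrays, 6.49 and 5.77 in pre-granulosa arrays, 11.68 and 11.35 in testis, and 5.33 and 5.52 in ovary. Their part in the differences of the 9 genes was not tested.

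Of 4 markers of germ cell meiosis and sex, 1 was called lower in pre-granulosa cells than in ovary, where 4.11% of all genes were. Their median difference was -0.02. The gene called was Stra8, the gene that starts meiosis, with 5.28 and 5.65 in pre-granulosa cells and 8.08 and 7.30 in ovary (adjusted p = 0.00622). Rec8, a meiotic cohesin subunit, read 11.46 and 10.61 in pre-granulosa cells and 9.63 and 9.77 in ovary (adjusted p = 0.0256, not called). Sycp3, of the synaptonemal complex, read 8.35 and 7.65 in pre-granulosa cells and 8.53 and 8.50 in ovary (adjusted p = 0.193, not called). In Sertoli cells against testis 2 of the 4 were called lower, where 4.4% of all genes were. These were Sycp3 (5.92 and 5.53 in Sertoli cells, 7.86 and 7.89 in testis) and Lefty2 (6.70 and 6.07 in Sertoli cells, 9.03 and 9.04 in testis). Rec8 read 7.54 and 7.48 in Sertoli cells and 5.54 and 5.86 in testis and was not called.

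Between the sorted cell types, 0 of the 9 genes were called, where 2.67% of all genes were called in either direction, and 2 of the 9 had an unadjusted p under 0.05. For Dazl, Ddx4, Dnd1 and Sox2 both groups were at background, so no direction or fold is given. Of the other 5, the Sertoli arrays lay above the pre-granulosa arrays without overlap for Nanog, Utf1 and Dppa3, as they did for 27.3% of all genes. The largest difference of Sertoli minus pre-granulosa among them was that of Nanog, 0.95 ± 0.14 (95% interval 0.61 to 1.28, adjusted p = 0.016), with both Sertoli arrays above both pre-granulosa arrays. Utf1 followed with 0.78 ± 0.18 (0.34 to 1.22, adjusted p = 0.0671), and Dppa3 with 0.44 ± 0.21 (-0.08 to 0.95, adjusted p = 0.344). Pou5f1 differed by 0.15 ± 0.32 (-0.64 to 0.93) and Lin28a by 0.02 ± 0.33 (-0.78 to 0.81).

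Between the whole gonads, again 0 of the 9 genes were called, where 0.352% of all genes were called in either direction, and 3 of the 9 had an unadjusted p under 0.05. Testis was lower than ovary in 6 of 9 differences, and the arrays did not overlap for 6 in that direction, beside 29.2% of all genes, and for 1 in the other, beside 26.1%. The median of testis minus ovary was -0.21, and -0.02 for all genes. Lin28a had a difference of -1.04 ± 0.33 (95% interval -1.84 to -0.25, adjusted p = 0.353), and its other probe set one of -0.83 ± 0.18 (-1.26 to -0.39, adjusted p = 0.163). Sox2 had -0.85 ± 0.19 (-1.32 to -0.38, adjusted p = 0.185), Pou5f1 -0.71 ± 0.32 (-1.49 to 0.07, adjusted p = 0.601) and Dnd1 -0.62 ± 0.19 (-1.08 to -0.17, adjusted p = 0.322). Dppa3 went the other way, with 0.47 ± 0.21 (-0.04 to 0.99, adjusted p = 0.599).

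Dazl, Ddx4, Nanog and Utf1 had the smallest differences between the gonads. Ddx4 differed by -0.22 ± 0.42 (-1.24 to 0.81), Nanog by -0.15 ± 0.14 (-0.48 to 0.19), Dazl by 0.10 ± 0.21 (-0.41 to 0.61) and Utf1 by 0.16 ± 0.18 (-0.28 to 0.60). These intervals leave room for changes of more than 1 log2 unit in Ddx4 and of less than 1 unit in the others. The order of the group means was ovary, testis, Sertoli, pre-granulosa for Pou5f1, Nanog and Lin28a, and testis, ovary, Sertoli, pre-granulosa for Utf1 and Dppa3. With values as deposited the last 2 groups changed places for Lin28a. Ovary stood above testis for Sox2, Ddx4 and Dnd1, and testis above ovary for Dazl, with no order between the sorted cells, which were at background. Sorted cells and gonads of the same sex were called different for all but Utf1 in XY, while Sertoli and pre-granulosa cells, and testis and ovary, which stand next to each other in these orders, were not called different for any of the 9 genes.

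The XY minus XX difference in sorted cells was then set against that in whole gonads in the same model. None of the 9 genes was called, where 0% of all 18193 genes were (2402 had an unadjusted p under 0.05), and 4 of the 9 had an unadjusted p under 0.05. Nanog had the largest value, 1.09 ± 0.20 (95% interval 0.62 to 1.56, adjusted p = 0.104), which joins the 0.95 of the sorted cells and the -0.15 of the gonads. The value was 1.06 ± 0.46 for Lin28a (adjusted p = 0.468), 0.87 ± 0.27 for Sox2 (adjusted p = 0.299) 0.84 ± 0.26 for Dnd1 (adjusted p = 0.296) and 0.62 ± 0.26 for Utf1 (adjusted p = 0.433). For Sox2 and Dnd1 the sorted arrays were all at background, so only the gonads gave measured levels.

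**Figure D3:**
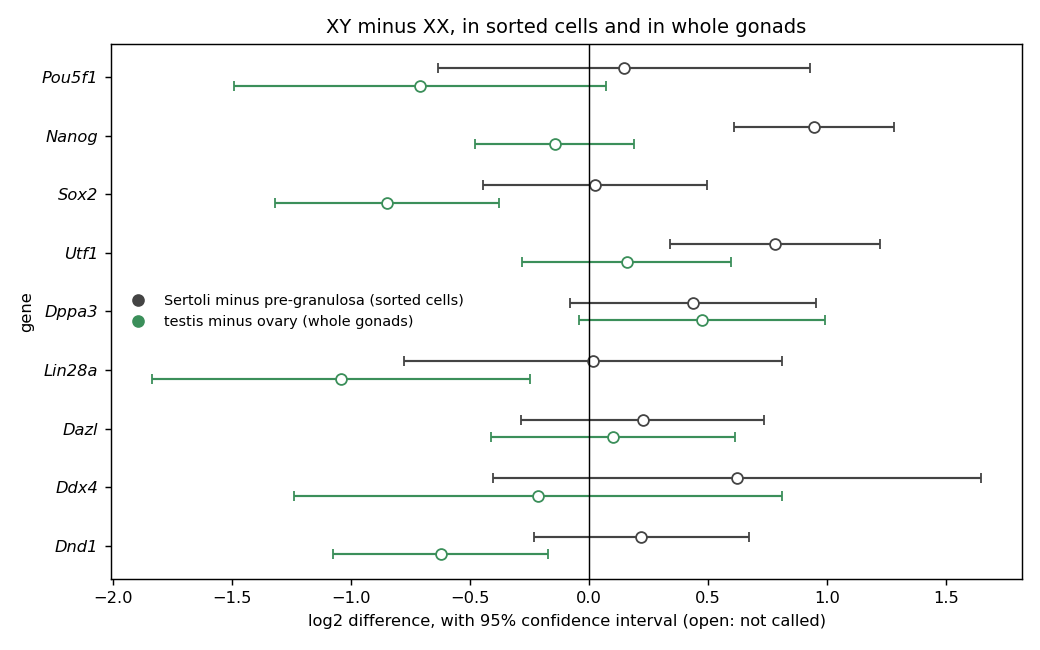
XY minus XX difference (log2, horizontal axis) of each of the 9 genes, Sertoli minus pre-granulosa above testis minus ovary; points are fitted differences and bars 95% confidence intervals, all open because none was called. Nanog (0.95) and Utf1 (0.78) lie farthest right among sorted cells, and Lin28a (-1.04) and Sox2 (-0.85) farthest left among gonads; for Sox2, Dazl, Ddx4 and Dnd1 the sorted-cell points come from readings at background and have no direction.

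Other genes of the pluripotency network were lower in sorted cells in part. Of 19 measured, 7 were called lower and 1 higher in Sertoli cells than in testis, with a median of -1.85, and 7 lower and 1 higher in pre-granulosa cells than in ovary, with a median of -1.13. Over all genes, 4.4% were called lower and 2.47% higher in the Sertoli comparison, and 4.11% and 1.29% in the pre-granulosa comparison. L1td1, an RNA-binding protein of stem cells, read 5.32 and 5.59 in Sertoli cells and 9.51 and 9.77 in testis (18.2-fold lower, adjusted p = 8.69e-04). Sall4, a zinc finger partner of OCT4, read 7.27 and 6.94 in pre-granulosa cells and 12.28 and 12.51 in ovary (39.1-fold lower, adjusted p = 0.00248), while another Sall4 probe set was not called (adjusted p = 0.0175). In Sertoli cells Tcl1 was at least 5.27-fold lower than in testis and in pre-granulosa cells at least 5.08-fold lower than in ovary. The gene called higher was Klf4, a reprogramming factor also transcribed in many differentiated cells, at 9.10 and 9.03 in Sertoli arrays, 9.39 and 9.16 in pre-granulosa arrays, 7.71 and 7.60 in testis, and 7.70 and 7.80 in ovary. The other Klf4 probe set had differences of 2.18 and 1.72 and was not called (adjusted p = 0.0167 and 0.0348). Between the sexes, 0 of 19 were called by limma in sorted cells (5 at an unadjusted p under 0.05) and 0 in gonads (3 at that level). The shares of all genes called there were 2.67% and 0.352%. Tdgf1, a co-receptor for Nodal, read 5.34 and 5.59 in testis and 4.00 and 3.98 in ovary (adjusted p = 0.0368, not called).

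Of 18 germline specification and surface genes, 6 were called lower in Sertoli cells than in testis and 8 in pre-granulosa cells than in ovary, with 0 called higher. The shares of all genes called lower were 4.4% and 4.11%, and those called higher 2.47% and 1.29%. Kit, the receptor for stem cell factor, was at background in the sorted arrays, and in Sertoli cells it was at least 4.78-fold lower than in testis and in pre-granulosa cells at least 3.77-fold lower than in ovary. Its second probe set was not called. Tfap2c, a regulator of primordial germ cells, had differences of -4.43 ± 1.03 and -5.61 ± 1.03 from the chosen probe set, which were not called (adjusted p = 0.0283 and 0.0163), and its 2 Sertoli arrays were far apart, as given above. Another Tfap2c probe set was called lower in both comparisons.

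This list had members called between the sexes, where 2.67% of all genes were called in sorted cells and 0.352% in gonads. Rhox6, an X-linked homeobox gene, read 7.59 and 7.32 in testis and 9.59 and 9.74 in ovary (difference -2.21 ± 0.16, adjusted p = 0.00529). Its neighbour Rhox9 read 7.83 and 7.79 in testis and 10.52 and 10.37 in ovary (difference -2.63 ± 0.23, adjusted p = 0.0105, not called). In sorted cells Ifitm3, an interferon-induced membrane protein used as a germ cell marker, read 6.64 and 7.09 in Sertoli and 10.20 and 9.41 in pre-granulosa arrays (7.69-fold lower, adjusted p = 0.00484). Ifitm1 was 6.29-fold lower (adjusted p = 0.00169), and Dmrt1, which Sertoli cells also transcribe, 5.49-fold higher (adjusted p = 0.00739). In whole gonads Ifitm3 read 9.86 and 9.82 in testis and 10.82 and 10.97 in ovary. Ifitm1 read 12.58 and 12.26 in pre-granulosa arrays, above the 12.16 and 12.15 of ovary, and 9.91 and 9.62 in Sertoli arrays.

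Of 18 other germline RNA-binding genes, 5 were called lower in Sertoli cells than in testis and 5 in pre-granulosa cells than in ovary, with 0 called higher. Over all genes the shares called lower were 4.4% and 4.11%, and those called higher 2.47% and 1.29%. Between the sexes limma called 0 of them in sorted cells (3 at an unadjusted p under 0.05) and 0 in gonads (4 at that level), where 2.67% and 0.352% of all genes were called. Mael, a germ granule protein of the piRNA pathway, was at background in all sorted arrays (3.55 to 3.60), with 8.08 and 7.79 in testis and 8.94 and 8.32 in ovary. In Sertoli cells it was at least 7.90-fold lower than in testis (adjusted p = 8.69e-04) and in pre-granulosa cells at least 12.8-fold lower than in ovary (adjusted p = 6.80e-04). Elavl2, which binds uridine-rich RNA, was 25.7-fold lower in Sertoli cells than in testis (adjusted p = 0.00379) and 26.0-fold lower in pre-granulosa cells than in ovary (adjusted p = 0.00395). Sertoli 2, at 4.89, and pre-granulosa 2, at 4.60, were below the background level, so both Elavl2 folds rest in part on readings with no measured level. Piwil2, a piRNA-binding protein, read 8.94 and 9.24 in Sertoli arrays, 7.24 and 7.79 in pre-granulosa arrays, 10.66 and 10.52 in testis and 10.96 in both ovary arrays, so that sorted cells of either sex were well above background.

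Genes of the complexes through which Dnd1, Nanos3 and Lin28a act were measured in all groups. The deadenylase list has 14 measured genes and includes Tob1, Tob2, Btg1 and Btg2. Cnot1 lay only on probe sets with several symbols and was not counted. By the brightest probe set of each gene, 0 of the 14 were at background in any array. In Sertoli cells against testis 0 were called by limma in either direction (6 at an unadjusted p under 0.05), where 4.4% of all genes were called lower and 2.47% higher. In pre-granulosa cells against ovary 1, Cnot9, was called lower (-1.67 ± 0.19, adjusted p = 0.00469), where 4.11% of all genes were. Probe sets of Cnot6l disagreed, and an unchosen one read 6.16 and 6.94 in Sertoli cells and 9.90 and 9.51 in testis. Another read 6.76 and 7.25 in Sertoli cells and 6.94 and 6.26 in testis. Calls of these other probe sets are not given here. Of 11 genes of the let-7 pathway, Tut4, which adds uridines to let-7 precursors bound by LIN28A, was called higher in Sertoli cells than in testis (2.88 ± 0.19, adjusted p = 0.00119) and in pre-granulosa cells than in ovary (2.09 ± 0.19, adjusted p = 0.00257). Over all genes, 2.47% and 1.29% were called higher in these comparisons. The other 4 probe sets of Tut4 were not called and gave -0.43 to 0.32 in Sertoli minus testis, so the probe sets of Tut4 disagree. Lin28b was at background in all 8 arrays, at 2.95 to 3.34. Hmga2, a let-7 target, read 8.08 and 10.40 in pre-granulosa cells and 11.93 and 11.88 in ovary (adjusted p = 0.0412, not called).

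**Figure D4:**
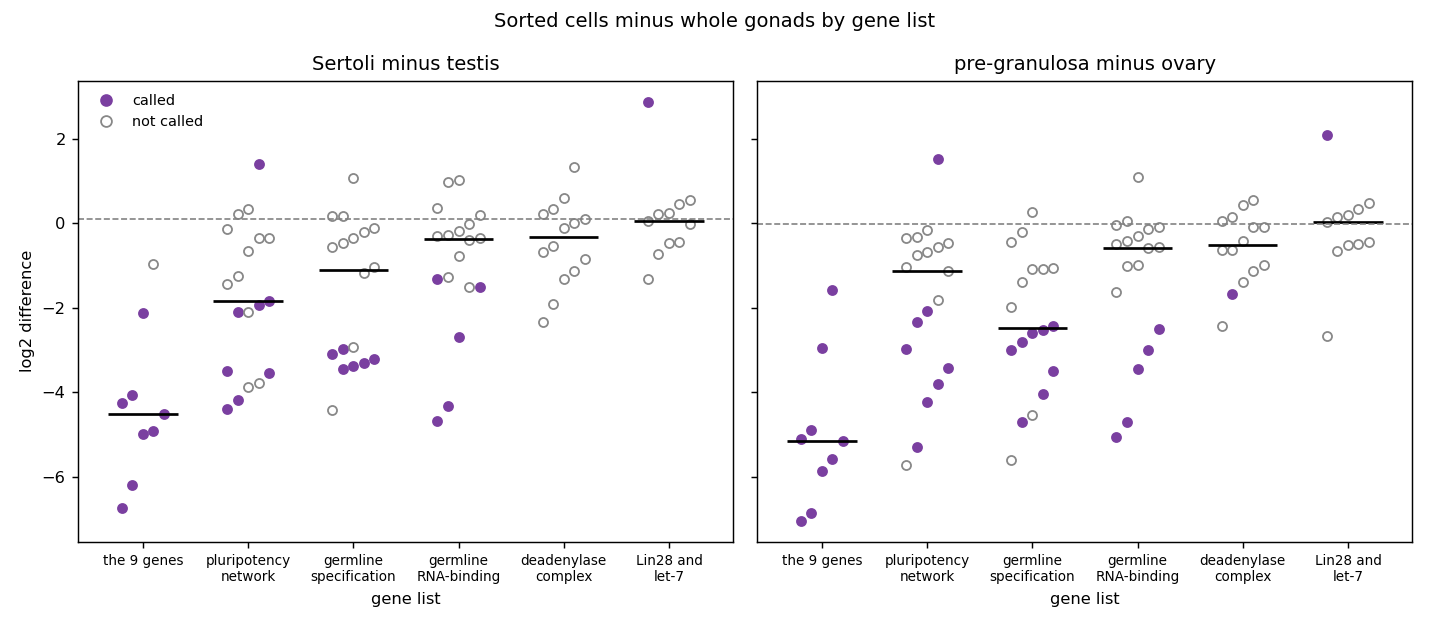
Log2 difference (vertical axis) of each measured gene by list, Sertoli minus testis at left and pre-granulosa minus ovary at right; filled points are called, horizontal bars are list medians and the dashed line is the median of all genes. The 9 genes have medians of -4.53 and -5.15, the deadenylase list of -0.32 and -0.52, and the let-7 list of 0.07 and 0.04.

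Genes with a profile most like each member were ranked by Euclidean distance between the 4 group means, each centred on its own mean over the groups. This is a description over 4 groups of 2 arrays. A reading at background has no measured level, so distances are given only between genes with at least 1 array above background in each sorted group. By this rule, set after the values were seen, no distance is given for Sox2, Dazl, Ddx4 or Dnd1, nor to Mael. Lin28a was 0.123 from Tfap2c, 0.443 from Pou5f1 and 0.664 from Dppa2. Pou5f1 was 0.461 from Elavl2 and 0.490 from Tfap2c. Nanog was 0.305 from Sall4, 0.612 from Dppa2 and 0.639 from Dppa3. Dppa3 was 0.391 from the adult globin gene Hbb-b2, 0.526 from Sall4, 0.586 from Elavl2 and 0.594 from Foxc2. Neither Hbb-b2 nor Foxc2 is on the germ cell lists used here. Utf1 was closest to Rnase4 (0.055), Pa2g4 (0.066), Rrn3 (0.085), Ddx21 (0.090) and Heca (0.091), none of them on those lists. The sorted replicates of Tfap2c and Dppa2 were far apart, so their group means are uncertain.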

How the data were processed

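The authors deposited log2 values, made with RMA per the submitters' processing notes, which give no version. Sorted-cell arrays had almost the same distribution as each other, as had gonad arrays, while array medians of these sets differed by 0.389. Separate normalization of the sets would give this pattern, but no label records it. Each array was therefore shifted to the common median of 5.779, and levels set across the sets rest on that shift. Of 45101 probe sets, 64 controls were left out and 45037 tested, 34945 of them with 1 symbol, 932 with several and 9160 with none.

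Differences were fitted with limma 3.58.1 in R 4.3.3 (a mean for each of 4 groups fitted to the 8 arrays, moderated by eBayes, two-sided, 4 residual degrees of freedom), and Benjamini-Hochberg adjustment ran over the 45037 probe sets. The threshold of 0.01 is that of the series text. Precision is limited by the number of arrays, and the fit was tested on simulated data.

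The 10 genes and the lists were chosen with earlier results of these data known. Named genes are all 10, and from each other list up to 4 called and 2 uncalled genes per comparison by the size of the moderated statistic, plus markers and the nearest 5 profiles per gene. From the lists, Klf4, Dppa2, Cdh1, Alpl, Lin28b and the second probe sets were added after their values were seen. Some genes of the lists were not analysed here. Promoters came from a RefSeq table for GRCm38.p6, from which 8 of the 10 genes were used. Alternatives covered scaling, filtering, moderation, weights, arrays fitted, the replicate block, probe set choice, threshold and each array left out.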

Additional observations from a re-analysis of the deposited data

Results flagged for a closer look

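For Nanog, both Sertoli arrays were above both pre-granulosa arrays and both testis arrays were below both ovary arrays, though neither difference was called, and testis minus ovary was -0.15 with a 95% interval of -0.48 to 0.19. The XY minus XX difference in sorted cells less that in gonads was 1.09 ± 0.20 in limma, with an adjusted p of 0.104, so it was not called. The same arrangement of arrays gave 0.84 ± 0.26 for Dnd1, with an adjusted p of 0.296, also not called, but its sorted arrays were all at background, at 4.40 or below, so no direction was measured in sorted cells.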

How the results depend on the processing

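Over 18 alternatives, 801 differences of single genes were recomputed, of which 723 kept their direction and their side of the threshold, 53 were no longer called, 4 became called and 21 changed sign, all among differences that were not called. Called differences kept their direction, for example -4.46 to -3.87 for Nanog in Sertoli minus testis. Of the 8 genes called there, 4 were called with no moderation and 0 to 8 when 1 array was left out. Of the 9 called in pre-granulosa minus ovary, 5 were called with no moderation, 0 with only the arrays compared and 0 to 9 when 1 array was left out. Fits with fewer arrays have fewer residual degrees of freedom, and the cause was not tested further. At an adjusted p of 0.05, Nanog was the 1 gene called between the sorted cells. Utf1 in Sertoli minus testis was called at that threshold, with values as deposited and with a weight per group.

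Sertoli minus pre-granulosa changed sign for Sox2 as deposited (-0.01), under quantile normalization (-0.02) and with 1 array left out (range -0.03 to 0.08). It did so for Lin28a as deposited (-0.02). With 1 array left out it lay between -0.41 and 0.45 for Lin28a, between -0.32 and 0.61 for Pou5f1 and between -0.01 and 1.25 for Ddx4. Testis minus ovary changed sign for Dazl under quantile normalization (-0.02), and with 1 array left out it lay between -0.11 and 0.31 for Dazl and between -0.01 and 0.32 for Utf1. The difference of differences changed sign for Dppa3 under quantile normalization (0.07), and with 1 array left out it lay between -0.25 and 0.18 for Dppa3 and between -0.08 and 0.33 for Dazl. The cause was not tested.

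Replicate numbers are shared between groups, and deviations of same-numbered arrays correlated at only -0.156 to 0.049. These values cannot show whether same-numbered arrays shared anything besides the number. With the replicate number as a block, 8 genes were called in Sertoli minus testis, 8 in pre-granulosa minus ovary and 0 in the other comparisons. Over the whole table, genes called in Sertoli minus testis were 1250, but 1765 as deposited, 295 with no moderation, 2399 with a weight per group and 416 with the replicate block, and those in pre-granulosa minus ovary were 982, but 1751, 141, 482 and 407 under the same settings. Sertoli minus pre-granulosa gave 485, but 6 with no moderation and 174 with weights, and testis minus ovary gave 64, but 1 and 260.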

Other observations

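Rhox6 and Rhox9, X-linked homeobox genes on the germline specification list, were lower in testis than in ovary but close together in the sorted cells, with 7.07 and 7.15 for Rhox6 in Sertoli cells, against 7.09 and 7.04 in pre-granulosa cells. The XY minus XX difference in sorted cells less that in gonads was 2.25 ± 0.22 for Rhox6 (limma, adjusted p = 0.0372) and 2.94 ± 0.33 for Rhox9 (adjusted p = 0.0466), neither of them called at 0.01. Piwil2, the piRNA-binding gene, had a difference of 1.57 ± 0.22 between Sertoli and pre-granulosa cells (adjusted p = 0.014, not called), with both Sertoli arrays above both pre-granulosa arrays, and 1.94 ± 0.31 for the same comparison with the gonads (adjusted p = 0.081, not called). Ifitm1 read 10.15 and 10.31 in testis, against 12.16 and 12.15 in ovary (-1.92 ± 0.18, adjusted p = 0.0125, not called).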
